A study of Mus musculus with 8 samples.

Results

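The 44 genes described here belong to the cell cycle and DNA replication machinery. They were measured in cultures of mouse mesothelial cells (MCs), the flat epithelial-like cells that line the peritoneum. The genes were chosen by symbol for their function, with earlier results of these data known, and all 44 were among the 13687 genes with a deposited value. RNAseq was run on primary MCs that were released by trypsin from the parietal peritoneum of WT mice and of CAV1-/- littermates (strain B6.Cg-CAV1tm1mls/J), which lack caveolin-1, the membrane protein needed to form caveolae. WT animals 3 and 4 and CAV1-/- animals 1 and 2 each gave 1 static culture and 1 culture stretched for 24 h, so that 8 libraries formed 4 groups of 2 cultures. The 2 cultures of an animal share their donor, and both sexes were used across the study's ex vivo conditions, with the age and sex of each animal here not given in the sources used. The study describes its stretching regime for human cells, and the strain applied to these mouse cultures was likewise not given.

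Cav1, the targeted gene, was at 764, 275, 570 and 247 TMM-normalized CPM (read counts scaled by the TMM-adjusted library total) in the WT cultures and between 12.8 and 34.5 in the 4 CAV1-/- cultures. Static libraries held between 9777738 and 14237503 reads and stretched libraries between 15861571 and 21203938, so every stretched library was deeper than every static one. The members were covered by 26 to 11707 reads per library. The summed level of 10 mesothelial markers was between 2915 and 3779 CPM in WT cultures and between 852 and 1108 CPM in CAV1-/- cultures, and 2 further markers, Calb2 and Cdh1, had no value. The summed level of 11 leukocyte markers was 4711 and 4737 CPM in the cultures of CAV1-/- animal 1 and between 78.7 and 462 CPM in the other 6 cultures, with 10 of the 11 highest in both cultures of animal 1. Adgre1, a macrophage marker of that list, had no value. The part of depth or of leukocyte RNA in the results below was not tested.

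A dividing cell passes from G1, in which D-type and E-type cyclins with their kinases inactivate RB and release E2F factors, into S phase, in which licensed origins fire and the MCM helicase unwinds DNA. It then enters G2 and mitosis, which are driven by cyclin B with CDK1, by Aurora and Polo-like kinases, and by the anaphase-promoting complex that ends them. Genes of the first wave commonly carry E2F sites, and genes of the second wave are commonly controlled by the DREAM and MMB complexes through CHR elements and by NF-Y through CCAAT boxes. Mesothelium rests in the intact peritoneum and divides when it is injured or placed in culture.

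Promoter sequence is shown for 5 members as examples of the 2 waves that the results below turn on, mitotic genes that were lower on stretch (Cdc20, Plk1, Ccnb2) and replication genes that were lower (Mcm5) or higher (Cdc6). Each run covers 250 bases before to 50 bases after the transcription start in RefSeq (GRCm38.p6), is written 5′ to 3′ on the strand of the gene, and has in capitals the matches, on either strand, to 3 motifs. The CHR motif was searched as TTTGAA and, in a second form, as TTCGAA. The NF-Y motif was searched as CCAAT, and the E2F motif as TTTGGCGC, TTTCGCGC, TTTCCCGC or TTTGCCGC. E2F matches can overlap each other or a CCAAT match. These promoters were chosen after the values were seen.
Cdc20 (chr4:118437294-118437593, minus strand): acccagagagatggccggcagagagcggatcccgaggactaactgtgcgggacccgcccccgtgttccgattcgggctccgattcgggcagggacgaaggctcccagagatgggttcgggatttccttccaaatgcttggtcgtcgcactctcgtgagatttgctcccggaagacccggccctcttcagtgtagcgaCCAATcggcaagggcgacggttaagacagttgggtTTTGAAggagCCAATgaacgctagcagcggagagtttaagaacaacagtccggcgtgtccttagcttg
Plk1 (chr7:122159185-122159484, plus strand): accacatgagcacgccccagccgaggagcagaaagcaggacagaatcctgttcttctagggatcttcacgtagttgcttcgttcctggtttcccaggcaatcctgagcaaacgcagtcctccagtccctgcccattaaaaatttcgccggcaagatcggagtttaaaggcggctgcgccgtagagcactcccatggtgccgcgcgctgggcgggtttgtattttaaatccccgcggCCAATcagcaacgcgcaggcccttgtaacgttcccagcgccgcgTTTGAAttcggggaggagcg
Ccnb2 (chr9:70421505-70421804, minus strand): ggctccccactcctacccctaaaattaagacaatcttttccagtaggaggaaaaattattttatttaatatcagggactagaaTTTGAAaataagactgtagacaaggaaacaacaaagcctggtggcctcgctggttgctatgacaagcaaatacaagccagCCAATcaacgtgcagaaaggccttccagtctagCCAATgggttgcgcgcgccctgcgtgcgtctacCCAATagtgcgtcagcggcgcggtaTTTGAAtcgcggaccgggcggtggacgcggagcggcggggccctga
Mcm5 (chr8:75109259-75109558, plus strand): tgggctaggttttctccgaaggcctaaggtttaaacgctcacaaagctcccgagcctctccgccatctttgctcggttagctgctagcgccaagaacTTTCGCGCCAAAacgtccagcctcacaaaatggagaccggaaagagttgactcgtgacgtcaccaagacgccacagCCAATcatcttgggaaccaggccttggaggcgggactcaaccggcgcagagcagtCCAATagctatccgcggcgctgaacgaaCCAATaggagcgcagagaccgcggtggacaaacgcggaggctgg
Cdc6 (chr11:98907901-98908200, plus strand): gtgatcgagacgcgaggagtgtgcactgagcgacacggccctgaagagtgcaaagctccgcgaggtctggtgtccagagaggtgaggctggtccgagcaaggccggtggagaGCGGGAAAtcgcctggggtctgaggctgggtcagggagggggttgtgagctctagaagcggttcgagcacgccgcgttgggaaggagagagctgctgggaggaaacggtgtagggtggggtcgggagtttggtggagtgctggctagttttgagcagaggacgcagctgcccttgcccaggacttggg
The 3 mitotic promoters printed hold CHR and CCAAT matches and no E2F match, Mcm5 holds CCAAT matches and 2 overlapping E2F matches, and Cdc6 holds 1 E2F match alone. In GENCODE M21 the Cdc6 gene starts at 98907801, before the printed run, and the bases ahead of that start were not searched. The motifs did not part the waves over all members. Among mitotic genes Cdk1 also holds an E2F match, Ccnb1 and Cenpe hold CCAAT without CHR, and Birc5 holds none of the motifs, while the replication genes Mcm2, Mcm7 and Cdc45 hold CHR matches. A match is a string of letters and was not measured as a binding site.

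Promoters were found for 35 of the 44 members and for 27025 genes in all. A CHR match was present in 16 of 35 members (45.7%) and in 19.4% of all promoters, a CCAAT match in 25 (71.4%) and 37.9%, and an E2F match in 9 (25.7%) and 2.32%. In all 2 sets of letters were searched, and the set reported was chosen after the shares of the other had been seen. With the letters searched first (CHR as TTTGAA and TTTAAA, and a longer E2F list), the shares were 60.0% of members against 27.8% of all promoters for CHR and 31.4% against 5.56% for E2F. Among the 14 members with a promoter that were lower on stretch in every animal (described below), CHR was present in 8, against 8 of the 21 others; with the first letters the counts were 9 of 14 and 12 of 21. The CHR shares of the lower and of the other members were thus closer to each other with the first letters.

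All 44 genes were expressed in every culture. Per kilobase of exon and averaged over the 8 cultures, the highest levels were those of Cdkn1a, which encodes the CDK inhibitor p21 (74.1 CPM per kb), Pcna, the sliding clamp of DNA polymerases (51.6), Rrm2, the small subunit of ribonucleotide reductase (45.9), Ccnd2, cyclin D2 (42.4), and Cdc20, the activator of the anaphase-promoting complex (37.4). The lowest were Cdc6, an origin licensing factor (3.52 CPM per kb), Cenpf, a kinetochore protein (3.54), and Ccne2, cyclin E2 (4.72). The highest culture was less than 2-fold above the lowest for 38 of the 44 genes (86.4%), against 60.7% of all genes tested and 76.8% of the genes tested whose mean lies in the range of the members.

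**Figure D1:**
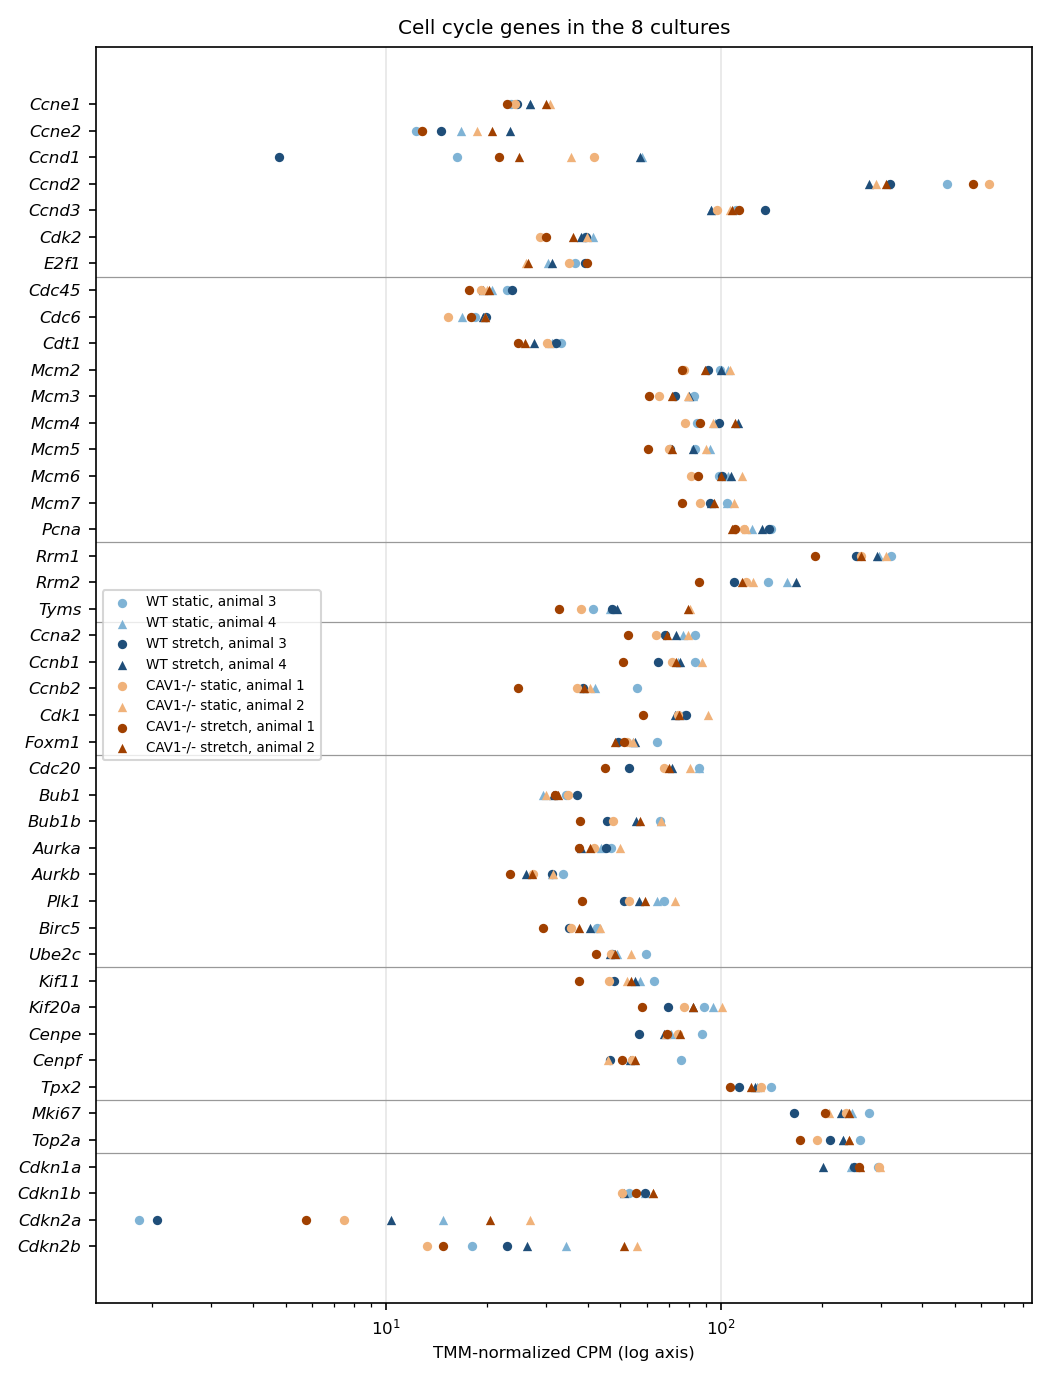
TMM-normalized CPM (log axis) of the 44 genes in the 8 cultures, 1 point per culture, grouped by role; circles are animals 3 (WT) and 1 (CAV1-/-), triangles animals 4 and 2, and dark points are stretched cultures. Most genes keep their 8 points within 2-fold, and Ccnd1, Cdkn2a and Cdkn2b are spread most widely.

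No member passed the test in any comparison. On log2(value + 1), with limma and Benjamini-Hochberg adjustment over 13665 genes, 0 of 44 members were called for stretch in WT MCs, for stretch in CAV1-/- MCs, for the mean stretch effect of both genotypes or for the interaction, in each of which 0% of all genes were called. None of the 44 was called for CAV1-/- against WT without stretch (0.0732% of all genes called, 10 genes) or with it (0.0585%, 8 genes). At an unadjusted p under 0.05, 1 member (2.27%) was lower for the mean stretch effect (Cdc20, against 2.55% of all genes) and 1 for CAV1-/- against WT with stretch (Pcna, against 3.82%), so these counts were no higher than over all genes. edgeR's quasi-likelihood test and DESeq2 on the recovered reads also called 0 members in every comparison.

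The question of the stretch comparisons was what 24 h of stretch does to these genes within an animal. Of the 44 members, 19 (43.2%) were lower in the stretched than in the static culture of 4 of 4 animals, against 16.9% of all genes, and 4 (9.09%) were higher in 4 of 4, against 14.5% of all genes. The median change of the members was -0.21 (log2) in WT animal 3, -0.06 in WT animal 4, -0.17 in CAV1-/- animal 1 and -0.14 in CAV1-/- animal 2, with all genes between -0.03 and 0.00. The differences were therefore small, and they were smallest in WT animal 4. Some markers of cell types, of the MCs themselves included, were also lower. Lower in 4 of 4 animals were 4 of 8 fibroblast, 4 of 10 mesothelial, 2 of 5 smooth muscle, 1 of 5 endothelial and 0 of 11 leukocyte markers. The median stretch effects of these lists were -0.50, -0.31, -0.18, -0.13 and -0.03. Higher in 4 of 4 were 1 fibroblast (Postn), 1 mesothelial (Pdpn) and 1 leukocyte marker (Lyz2). In CAV1-/- animal 2, 2 of the 11 leukocyte markers were lower, with a median change of 0.14. The summed fibroblast level was between 12662 and 29478 CPM in static and between 12238 and 25902 CPM in stretched cultures, and lower on stretch in each animal. The part of changes in the MCs or in other cell types in the differences of the cycle genes was not tested. The count of genes lower in 4 of 4 animals was chosen after the values were seen, includes changes close to 0 and has no test. In cultures of mixed cells, fewer dividing cells and less RNA per dividing cell cannot be told apart.

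With the animal as a block, which compares the 2 cultures of each animal directly, limma called 201 genes for the mean stretch effect (1.47% of all genes) and again 0 members. In that fit 18 members were lower at an unadjusted p under 0.05 (11.5% of all genes were) and 1 was higher (9.47% of all genes), and the smallest adjusted p of a member was 0.0735, that of Kif20a. With 1 stretch effect fitted for the 4 animals, chosen after the values were seen, 308 genes and 0 members were called, and the smallest adjusted p of a member was 0.0538. In the stretch effect of 1 genotype the block left 0 members called, with 0 genes called in WT and 1 in CAV1-/-.

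**Figure D2:**
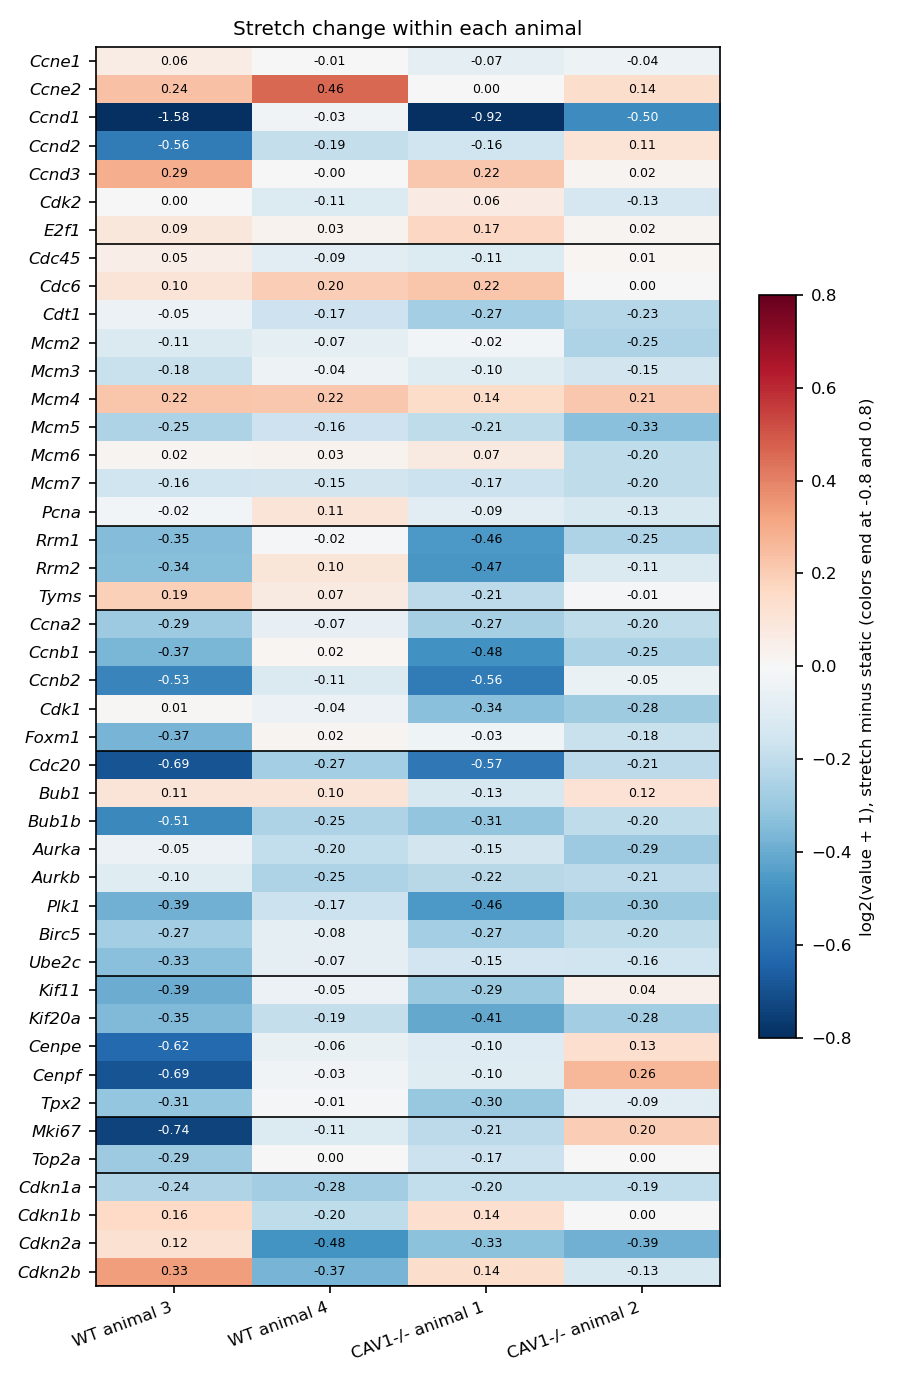
Change on stretch of the 44 genes within each of the 4 animals, as the difference of log2(value + 1) between the stretched and the static culture; blue is lower on stretch, red is higher, and lines part the roles. The mitotic kinase and checkpoint block is blue in nearly every cell, and Mcm4 is red in all 4 animals.

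The mitotic kinases and checkpoint genes were the role with the most members lower in every animal, 7 of 8. Cdc20 was at 86.3 and 86.1 CPM in static WT cultures (animals 3 and 4) and 53 and 71.2 on stretch, and at 67.6 and 80.6 in static CAV1-/- cultures (animals 1 and 2) and 45.1 and 69.7 on stretch. Each animal was lower on stretch, although stretched WT animal 4 and CAV1-/- animal 2 remained above static CAV1-/- animal 1. Its mean stretch effect was -0.44 (SE 0.17, adjusted p = 0.984 by limma), and with the block the SE was 0.098 and the adjusted p 0.0867. Plk1, the Polo-like kinase of mitotic entry and spindle assembly, was at 67.4 and 64.4 CPM in static and 51.3 and 57.0 in stretched WT cultures, and at 53.2 and 73.1 in static and 38.3 and 59.4 in stretched CAV1-/- cultures. The mean stretch effect of Plk1 was -0.33 (SE 0.17, adjusted p = 0.984, with the block 0.0811). Bub1b, which encodes the checkpoint protein BUBR1, went from 65.5 to 45.6 and from 66.4 to 55.7 CPM in WT animals and from 47.6 to 38.0 and from 66.1 to 57.2 in CAV1-/- animals.

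Both Aurora kinases (Aurka, Aurkb), the Aurora B partner survivin (Birc5) and the ubiquitin-conjugating enzyme of the anaphase-promoting complex (Ube2c) were also lower in 4 of 4 animals, by between -0.05 and -0.33. Bub1, a checkpoint kinase at kinetochores, was the exception, at 34.3 and 29.3 CPM in static and 37.0 and 31.5 in stretched WT cultures, and at 34.9 and 29.9 in static and 31.8 and 32.5 in stretched CAV1-/- cultures. It was higher in 3 of the 4 animals.

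Of the cyclins and kinase of mitotic entry, Ccna2 (cyclin A2) and Ccnb2 (cyclin B2) were lower on stretch in 4 of 4 animals. Ccnb2 was at 56.1 and 42.0 CPM in static and 38.6 and 38.7 in stretched WT cultures, and at 37.1 and 40.5 in static and 24.8 and 39.0 in stretched CAV1-/- cultures. Ccnb1, cyclin B1, was at 83.7 and 74.4 CPM in static WT and 64.6 and 75.3 in stretched WT, and at 71.6 and 87.6 in static CAV1-/- and 50.9 and 73.3 in stretched CAV1-/- cultures. Cdk1, the mitotic kinase itself, was at 78.3 and 75.4 CPM in static WT and 78.7 and 73.1 in stretched WT, and at 74.3 and 91.2 in static CAV1-/- and 58.6 and 74.7 in stretched CAV1-/- cultures. The stretch effect of Cdk1 was -0.02 in WT and -0.31 in CAV1-/- MCs (SE 0.16 each), and that of Ccnb1 was -0.18 and -0.37 (SE 0.21 each). Their differences between genotypes are given with the interaction below. Foxm1, the factor that activates genes of this phase, was lower in 3 of 4 animals.

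Among the spindle and kinetochore genes, Kif20a, a kinesin of cytokinesis, and Tpx2, a spindle assembly factor, were lower in 4 of 4 animals. Kif20a went from 89.1 to 69.6 and from 94.5 to 82.6 CPM in WT animals, and from 77.6 to 58.1 and from 101 to 82.7 in CAV1-/- animals. Kif11, Cenpe and Cenpf were lower in 3 of 4 animals and higher in CAV1-/- animal 2.

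The 2 common marks of proliferation did not move in every animal. Mki67, which encodes Ki-67, was at 276 and 247 CPM in static WT and 165 and 229 in stretched WT cultures, and at 236 and 211 in static CAV1-/- and 204 and 241 in stretched CAV1-/- cultures. It was lower on stretch in 3 animals and higher in CAV1-/- animal 2, and the lowest of the 8 cultures was stretched WT animal 3. Its stretch effect was -0.42 in WT and -0.01 in CAV1-/- MCs (SE 0.19 each, adjusted p = 1.00 by limma for both). Top2a, DNA topoisomerase II alpha, was between 172 and 260 CPM in the 8 cultures and changed by 0.00 in animals 4 and 2.

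In the replication group of 10 genes, 5 were lower in 4 of 4 animals (Cdt1, Mcm2, Mcm3, Mcm5, Mcm7) and 2 were higher (Cdc6, Mcm4). The 6 MCM proteins form 1 hexameric helicase, yet their transcripts did not share a direction. Mcm5 was at 83.7 and 92.8 CPM in static and 70.4 and 82.7 in stretched WT cultures, and at 70.1 and 90.0 in static and 60.7 and 71.2 in stretched CAV1-/- cultures. Mcm4 was at 84.8 and 96.2 CPM in static and 99.0 and 112 in stretched WT cultures, and at 78.2 and 94.7 in static and 86.6 and 110 in stretched CAV1-/- cultures. The change of Mcm4 was alike in the 4 animals, between 0.14 and 0.22, and its mean stretch effect was 0.20 (SE 0.12, adjusted p = 0.991 by limma, with the block 0.131). The mean stretch effect of Mcm5 was -0.24 (SE 0.12, adjusted p = 0.984, with the block 0.110).

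Mcm2 was at 99.4 and 105 CPM in static and 91.7 and 99.8 in stretched WT cultures, and at 77.6 and 106 in static and 76.6 and 89.3 in stretched CAV1-/- cultures. Its difference in CAV1-/- animal 1 was -0.02, and the ratio of 0.987 had a 95% interval of 0.910 to 1.07 from counting error alone (exact binomial). Cdc6 was at 18.5 and 16.9 CPM in static and 19.9 and 19.5 in stretched WT cultures, and at 15.2 and 19.7 in static and 18.0 and 19.8 in stretched CAV1-/- cultures, so that its difference in CAV1-/- animal 2 was nearly 0. Pcna was lower in 3 animals and higher in WT animal 4, with a mean stretch effect of -0.03 (SE 0.08). Cdc45, the helicase cofactor, and Mcm6 were lower in 2 and 1 of the 4 animals. Of the deoxynucleotide enzymes, Rrm1, the large subunit of ribonucleotide reductase, was lower in 4 of 4 animals and Rrm2 in 3, whereas Tyms, thymidylate synthase, was higher in both WT and lower in both CAV1-/- animals.

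Of the G1 genes, Ccnd1, cyclin D1, had the largest stretch effect and the largest spread. It was at 16.3 and 58.2 CPM in static and 4.78 and 57.1 in stretched WT cultures, and at 41.8 and 35.7 in static and 21.7 and 24.9 in stretched CAV1-/- cultures. The cultures spanned 12.2-fold, and the change was -0.03 in WT animal 4 and -1.58 in WT animal 3. The mean stretch effect of -0.76 had an SE of 0.77, and an SE of 0.24 with the block (adjusted p = 0.994 and 0.151 by limma). Ccnd2 was lower in 3 animals and Ccnd3 in 1. Ccnd3 was at 111 and 93.1 CPM in static and 135 and 93.1 in stretched WT cultures, and at 97.3 and 106 in static and 113 and 108 in stretched CAV1-/- cultures.

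Ccne2 had the largest upward difference, at 12.2 and 16.7 CPM in static and 14.6 and 23.3 in stretched WT cultures, and at 12.8 and 18.7 in static and 12.8 and 20.7 in stretched CAV1-/- cultures. The mean stretch effect was 0.21 (SE 0.25, adjusted p = 0.999 by limma), of which WT animal 4 gave most. E2f1, the activator of S phase genes, was at 36.7 and 30.5 CPM in static and 39.2 and 31.2 in stretched WT cultures, and at 35.3 and 26.1 in static and 39.7 and 26.5 in stretched CAV1-/- cultures. It was higher in 4 of 4 animals by 0.02 to 0.17, with a mean of 0.08 (SE 0.18). Ccne1, cyclin E1, and Cdk2 were higher in 1 and 2 of the 4 animals.

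The genes lower on stretch included an inhibitor of the cycle. Cdkn1a was at 295 and 245 CPM in static and 250 and 202 in stretched WT cultures, and at 297 and 298 in static and 259 and 260 in stretched CAV1-/- cultures. Its change was between -0.19 and -0.28 in the 4 animals, and the mean was -0.23 (SE 0.11, adjusted p = 0.984 by limma, with the block 0.0953). Cdkn2a, whose locus encodes p16INK4a and p19ARF, was at 1.82 and 14.8 CPM in static and 2.07 and 10.3 in stretched WT cultures, and at 7.50 and 26.9 in static and 5.77 and 20.4 in stretched CAV1-/- cultures. It was lower in 3 animals, and it differed far more between animals than between cultures of 1 animal. Cdkn2b, encoding p15INK4b, had the same order of animals at the top, with 56.2 and 51.4 CPM in CAV1-/- animal 2 and 34.4 and 26.4 in WT animal 4. In both genotypes these animals carry replicate number 2 in the labels, so differences between animals and between replicate numbers cannot be told apart. The gene-level values cannot separate the 2 products of Cdkn2a. Cdkn1b, encoding p27, was higher on stretch in 3 animals and lower in WT animal 4.

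**Figure D3:**
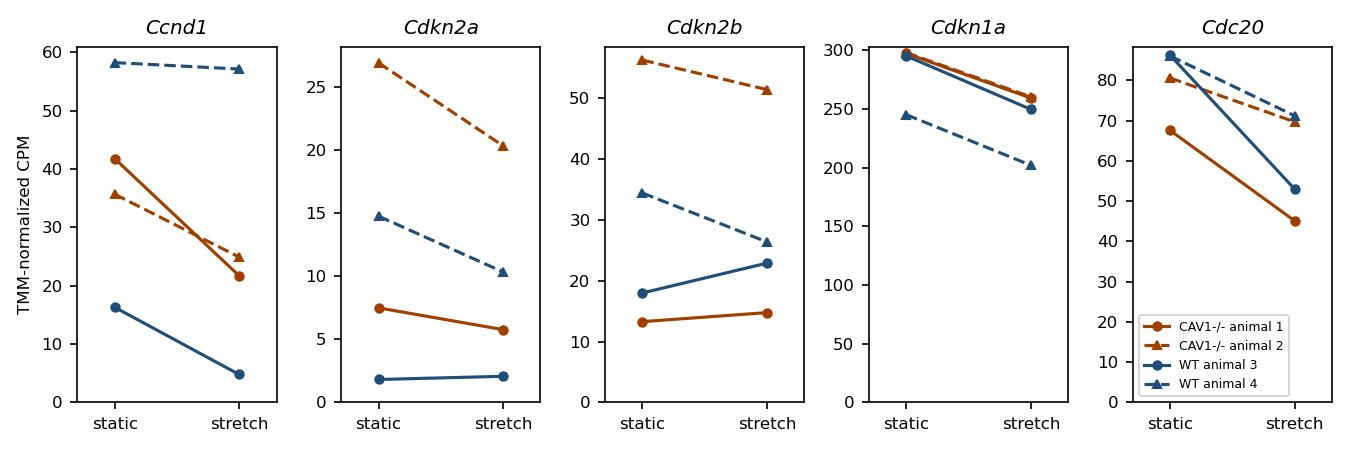
TMM-normalized CPM (axes from 0) of Ccnd1, Cdkn2a, Cdkn2b, Cdkn1a and Cdc20 in the static and stretched culture of each animal, joined by a line. The lines of Cdkn1a and Cdc20 slope down in all 4 animals, and those of Cdkn2a and Cdkn2b lie apart by animal.

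Other genes of the cycle were read from 4 lists that hold no member. Of 56 other G2 and M phase genes, 27 (48.2%) were lower in 4 of 4 animals and 0 were higher, and their median mean stretch effect was -0.19, with -0.17 for the members and -0.01 for all genes. The extremes were Psrc1, a spindle protein (-0.45, SE 0.25), and Plk4, the kinase of centriole duplication (0.10, SE 0.09). Of 57 other S phase genes, 12 (21.1%) were lower and 3 higher, between Tk1, thymidine kinase (-0.34, SE 0.11), and Casp8ap2, a factor of histone gene expression (0.32, SE 0.12). Of 25 genes of the RB, E2F and DREAM complexes and their regulators, 2 were lower and 3 higher, between Cdk6, a G1 kinase (-0.24, SE 0.20), and Fbxw7, a ubiquitin ligase subunit that targets cyclin E (0.32, SE 0.09). Of 19 p53 target and inhibitor genes, 8 (42.1%) were lower and 1 was higher, between Plk2 (-0.31, SE 0.15) and Mdm2, the ubiquitin ligase for p53 (0.22, SE 0.17). No gene of these lists was called by limma for stretch in WT or CAV1-/- MCs or for their mean. With the animal as a block, 1 of the 56 other G2 and M phase genes, Psrc1, was called for the mean stretch effect, beside the 1.47% of all genes.

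**Figure D4:**
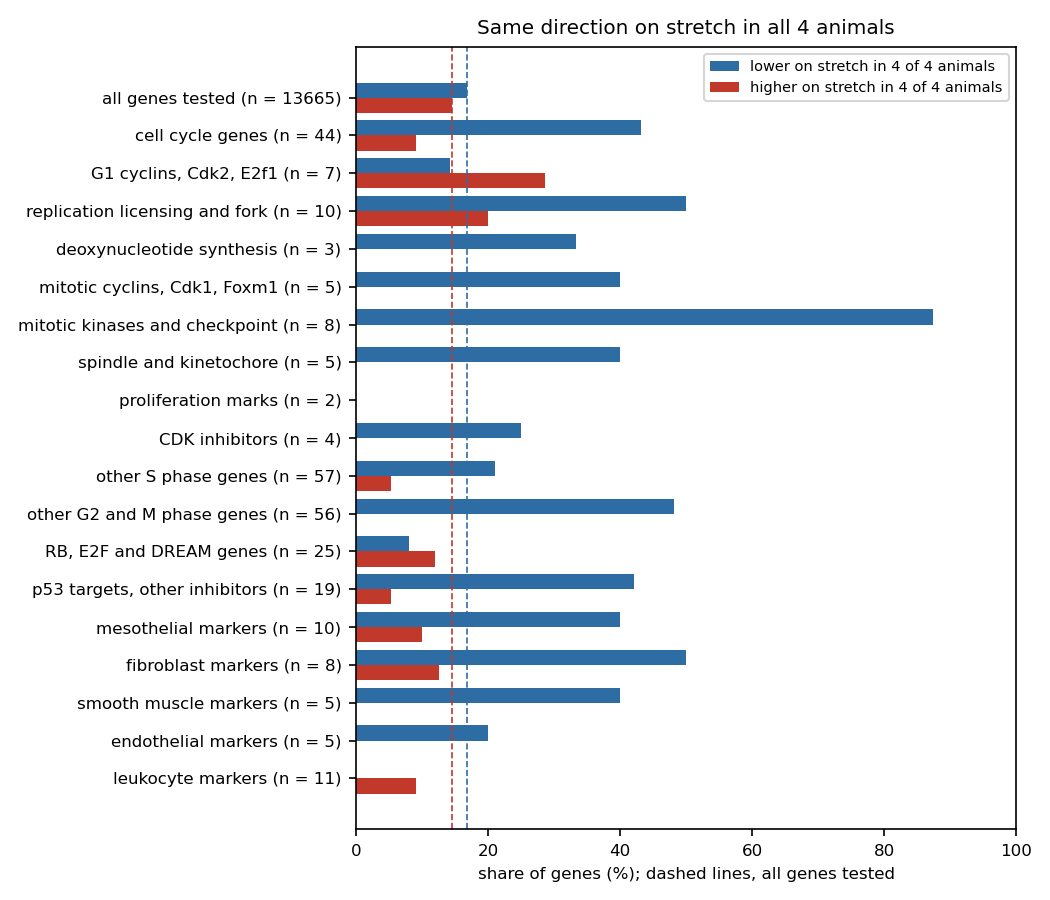
Share of genes (%) lower (blue) or higher (red) on stretch in 4 of 4 animals, for all 13665 genes tested, the 44 cell cycle genes, their roles, 4 lists of other genes and 5 lists of cell type markers; dashed lines mark all genes (16.9% lower, 14.5% higher). Mitotic kinases and checkpoint genes (7 of 8) and the other G2 and M phase genes (27 of 56) lie above the line for lower, as do the fibroblast (4 of 8), mesothelial (4 of 10) and smooth muscle (2 of 5) markers. The p53 target and inhibitor genes (8 of 19) also lie above it.

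The comparison of CAV1-/- with WT MCs asked whether loss of caveolin-1 shifts the same genes. Without stretch the median log2 fold change of the members was -0.10 (all genes -0.01), with 30 lower and 14 higher, and with stretch it was -0.13 (all genes 0.00), with 33 lower and 11 higher. Without the 2 cultures of CAV1-/- animal 1, a choice made after the values were seen, the medians were 0.01 and 0.03, with 21 and 19 members lower. Both cultures of animal 1 were the lowest of the 8 for 13 members (29.5%), among them 5 of the 6 MCM genes, against 12.2% of all genes, and these are the cultures with the high leukocyte markers.

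Groups that did not overlap were about as frequent among the members as elsewhere, or less so. In static culture 11 members had both CAV1-/- values below both WT values (25%, against 20.8% of all genes), and 1 had both above (Cdkn1a, against 16.1% of all genes). With stretch 6 were below (13.6%, against 15.9%), and 2 were above (Cenpe and Cdkn1a, against 14.6%). Over all 4 against 4 cultures, Pcna alone was below (2.27% of members, against 5.88% of all genes), and none was above (3.86% of all genes).

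**Figure D5:**
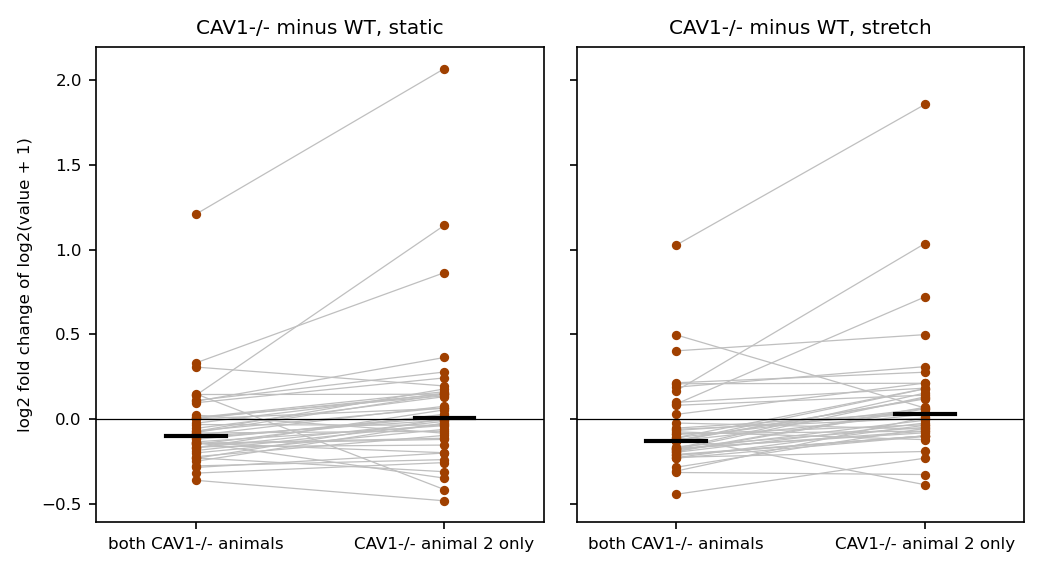
Log2 fold change (of value + 1) of CAV1-/- over WT for the 44 genes, without (left) and with (right) stretch, from both CAV1-/- animals and from CAV1-/- animal 2 alone; lines join a gene and black bars are medians. The medians move from -0.10 to 0.01 and from -0.13 to 0.03.

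Pcna was at 141 and 123 CPM in static and 139 and 133 in stretched WT cultures, and at 117 and 119 in static and 110 and 108 in stretched CAV1-/- cultures. The WT and CAV1-/- values did not overlap. The fold change was -0.16 without stretch and -0.31 with stretch (SE 0.11 each, adjusted p = 0.814 and 0.662 by limma), and without animal 1 it was -0.15 and -0.33. Pseudogenes of Pcna are annotated, to which reads could have been assigned.

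Cdkn2a had the largest difference upward, 1.21 without and 1.03 with stretch (SE 1.13 each, adjusted p = 0.872 and 0.991), and its groups overlapped, since CAV1-/- animal 1 was below WT animal 4. With a block on the replicate number, the SE of Cdkn2a was 0.24 and its adjusted p 0.0763 and 0.140 by limma. Ccnd1 differed by 0.31 and 0.40 (SE 1.09 each), a direction that turned to -0.41 with stretch by edgeR and to -0.40 by DESeq2. Tyms differed by 0.33 without stretch (SE 0.48), with 41.3 and 46.6 CPM in WT and 38.1 and 80.7 in CAV1-/- cultures, and Ccnd2 by 0.50 with stretch (SE 0.45), with 321 and 277 CPM in WT and 568 and 312 in CAV1-/- cultures. In both genes a single CAV1-/- animal stood above the others, animal 2 for Tyms and animal 1 for Ccnd2. The members furthest below WT in static culture were Cenpf (-0.36, SE 0.19), at 75.9 and 54.6 CPM in WT and 54.4 and 45.8 in CAV1-/- cultures, Ccnb2 (-0.32, SE 0.24) and Kif11 (-0.28, SE 0.19), a spindle kinesin at 63.2 and 57.4 CPM in WT and 46.4 and 52.3 in CAV1-/- cultures. With stretch they were Rrm2 (-0.44, SE 0.24), at 109 and 168 CPM in WT and 85.7 and 115 in CAV1-/- cultures, Pcna and Ccnb2 (-0.31, SE 0.24).

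None of the remaining genes followed in every comparison was called between genotypes. Without and with stretch, the fold change of Mki67 was -0.23 and 0.19 (SE 0.19), of Cdk1 0.10 and -0.19 (SE 0.16), of Ccnb1 0.005 and -0.19 (SE 0.21), of Mcm2 -0.17 and -0.21 (SE 0.17), of E2f1 -0.14 and -0.10 (SE 0.26), and of Cdkn1a 0.15 and 0.21 (SE 0.15). All 10 replication genes were lower in CAV1-/- MCs both without and with stretch, with medians of -0.12 and -0.19, and without animal 1 the counts were 4 and 7 of 10. The 4 inhibitor genes were higher in both comparisons, with Cdkn1b at only 0.010 without stretch (SE 0.16). They stayed higher without animal 1, but each was lower in animal 1 than in CAV1-/- animal 2, so leaving it out raises these differences. Without animal 3, Cdkn2a turned to -0.034 in static culture. In the other lists the extremes in static culture were Ung (-0.58) and Gins1 (0.29) for S phase, Stmn1 (-0.50) and Ckap2 (0.22) for G2 and M phase, Tfdp2 (-0.57) and E2f5 (0.33) for RB and E2F, and Cdkn2c (-0.51) and Cdkn1c (1.22) for p53 targets and inhibitors. With stretch they were Chaf1b (-0.70) and Blm (0.17), Stmn1 (-0.54) and Gas2l3 (0.20), Mnat1 (-0.39) and Cdk6 (0.23), and Plk2 (-0.59) and Cdkn1c (0.49). None of these genes was called by limma.

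The interaction asked whether the stretch effect differed between genotypes, with the effect in CAV1-/- MCs minus that in WT MCs. Its median over the members was -0.04 (all genes 0.01), and 0 members were called. The largest positive values were those of Cenpf (0.44, SE 0.27), Mki67 (0.42, SE 0.27) and Cenpe (0.36, SE 0.22), with adjusted p = 1.00 by limma for each. The 3 genes had their largest downward stretch differences in WT animal 3 (-0.69, -0.74 and -0.62) and were higher on stretch in CAV1-/- animal 2 (0.26, 0.20 and 0.13). Cenpf was at 75.9 and 54.6 CPM in static and 46.6 and 53.5 in stretched WT cultures, and at 54.4 and 45.8 in static and 50.7 and 55.2 in stretched CAV1-/- cultures. Cenpe, a kinetochore motor, was at 87.7 and 70.7 CPM in static and 56.7 and 67.7 in stretched WT cultures, and at 74.3 and 68.6 in static and 69.0 and 75.3 in stretched CAV1-/- cultures. The largest negative values were those of Cdk1 (-0.29, SE 0.23), Ccne2 (-0.28, SE 0.49) and Tyms (-0.24, SE 0.68). For the other genes followed throughout, the interaction was -0.19 for Ccnb1, -0.15 for Pcna, -0.04 for Mcm2, 0.03 for E2f1, 0.10 for Ccnd1, 0.06 for Cdkn1a and -0.18 for Cdkn2a.

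The gene positions bear on a few of these values. Exons of 15 members overlap those of another gene in GENCODE M21, mostly on the opposite strand, and the library kit is not stated to keep strand. Among the genes above they include Cdc20 (with Elovl1), Ccna2 (with Exosc9), Ccnd1 (with LTO1), Kif20a (with Cdc23), Ube2c (with Tnnc2) and Mcm7 (with Cops6 and Ap4m1), whose reads cannot be told apart there. Annotated pseudogenes carry the names of 5 members, Ccnb1, Ccnb2, Ccnd3, Pcna and Tyms.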

How the data were processed

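RNAseq was performed on 8 libraries of mouse MCs (4 groups of 2). Per the labels, poly A+ RNA was sequenced. Per the study's methods, reads were trimmed (Cutadapt) and quantified per gene by RSEM on a GRCm38 transcriptome, and edgeR's TMM scaling followed. The signal deposited by the authors is TMM-normalized CPM for 13687 genes; 100% of values were whole multiples of 1 read (tolerance 0.01 reads), from which reads were recovered. The study's legend and these files differ in the number of replicates per group, and 2 were analysed here. Intervals cover counting error only, and 3 reads (0.146 to 0.308 CPM) were the floor.

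All 8 libraries were fitted together with limma (version 3.58.1, R version 4.3.3) on log2(value + 1), with 1 mean per group, an intensity trend, no replicate block and 4 residual degrees of freedom. Genes at 1 or more in at least 2 libraries were tested (13665, with 22 removed and all 44 members kept). Genes were called at a Benjamini-Hochberg adjusted p under 0.05, and log2 fold changes understate changes of low genes. Deviations of the static and stretched culture of an animal from their group means correlated (r = 0.703 in WT, 0.850 in CAV1-/- MCs), and the labels give the shared animal, so the animal was used as a block in the paired fit. With 2 cultures per group, p-values of the main fit rest on a spread between animals that is pooled over the 4 groups and drawn toward the trend of all genes. In the paired fit, with 2 residual degrees of freedom, they rest on how far the stretch change differed between animals of a genotype.

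The members named with values are, in each comparison, the 3 largest differences in each direction plus Mki67, Cdk1, Ccnb1, Pcna, Mcm2, E2f1, Ccnd1, Cdkn1a and Cdkn2a. Others named with values, which include Bub1, Bub1b, Kif20a, Mcm5 and Cdkn2b, were chosen after their values were seen. The members and lists were chosen with earlier results of these data known. Alternatives were pseudocounts of 0.1 and 5, other filters, median-of-ratios and quantile scaling, eBayes without trend, only 4 libraries, edgeR (version 4.0.16) and DESeq2 (version 1.42.0) on recovered reads, and each library left out. Counts of members moving one way in 4 of 4 animals, counts of groups that did not overlap, leaving out both cultures of animal 1 or 3, the common stretch effect with block and the promoter letters were chosen after seeing the data. The limma fit without a block and the edgeR test were tested on simulated data that held no animal effect. The fits with a block and DESeq2 were not tested in that way. Lengths and positions are from GENCODE M21 and promoters from RefSeq (GRCm38.p6), where 9 members had no entry and are named only.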

Additional observations from a re-analysis of the deposited data

Results flagged for a closer look

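Tyms, thymidylate synthase, was the 1 member of 44 for which both animals of 1 genotype moved one way on stretch and both of the other the opposite way, against 8.98% of all genes tested. It was higher on stretch in both WT animals (0.19 and 0.07, log2) and lower in both CAV1-/- animals (-0.21 and -0.01). The interaction by limma was -0.24 (SE 0.68, adjusted p = 1.00), so the difference did not pass the test, and the change in CAV1-/- animal 2 was close to 0.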

How the results depend on the processing

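No alternative called any of the 44 members in any comparison, and the direction of the member median for stretch was downward under every setting run, with -0.23 to -0.10 for the mean stretch effect when each library was left out. The count of members lower in 4 of 4 animals was 18 (40.9%) with quantile scaling and 19 with the other scalings, pseudocounts and filters. Lower in all 3 remaining animals were 19, 24, 22 and 23 members without animals 1, 2, 3 and 4, against 23.9%, 21.9%, 21.2% and 22.4% of all genes. With 2 animals per genotype and errors near 0.18 (the median SE of a member between 2 groups in the main fit), small differences between groups were not detectable. In the paired fit the median SE of a member was 0.105 for stretch in 1 genotype and 0.074 for the mean stretch effect.

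Counts of called genes over the whole table depended on the test, while members stayed at 0. DESeq2 called 3 genes for stretch in WT, 7 for stretch in CAV1-/-, 34 for the mean stretch effect, 309 for CAV1-/- against WT without stretch and 237 with it. The replicate block gave 1 gene for stretch in CAV1-/- and 201 for the mean stretch effect (308 with a common effect). WT and CAV1-/- cultures with the same replicate number come from different animals, yet their deviations from group means correlated (r = 0.522 static, 0.484 stretched). The labels do not say what a replicate number stands for, and its part in the results was not tested. With a block on that number, the genotype comparisons gave 246 and 110 genes. For CAV1-/- against WT without stretch, eBayes without trend gave 6 genes and edgeR 2. Fitting just the 4 libraries of a comparison, or leaving out animal 1 or animal 3, gave 0 genes in both genotype comparisons, and leaving out 1 library gave 0 to 8 without and 0 to 7 with stretch.

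Some single genes changed direction, none of them called. Without animal 1, Mki67 was at 0.20 for stretch in CAV1-/-, Mcm2 at 0.055 for CAV1-/- against WT without stretch, Ccnb1 at 0.070, Ccnb2 at 0.010 and the member median at 0.032 with stretch, and E2f1 at -0.039 for the interaction. Without animal 3, Ccnb1 was at 0.017 for stretch in WT. Without animal 3, CAV1-/- against WT gave -0.58 for Ccnd1 and -0.034 for Cdkn2a without stretch, and -0.043 for Mki67, 0.057 for E2f1 and -1.26 for Ccnd1 with stretch. Its interaction was -0.68 for Ccnd1 and 0.12 for Cdkn2a. Cdk1 was at 0.00035 for stretch in WT with quantile scaling. With edgeR and DESeq2, Ccnd1 with stretch was at -0.41 and -0.40 between genotypes, its interaction at -0.46 and -0.48, and that of Cdkn2a at 0.023 and 0.012; a pseudocount of 5 gave -0.053 for the interaction of Ccnd1. The cause was not tested.

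With each library left out in turn, these ranges crossed 0 or moved by more than the spread. The spread was the pooled within-group SD of the members' median deviation per library, 0.131 (log2). For stretch in WT MCs, Cdk1 -0.071 to 0.034, Pcna -0.051 to 0.14, E2f1 -0.10 to 0.22, Ccnd1 -2.47 to 0.86 and Cdkn2a -1.42 to 1.07. For stretch in CAV1-/- MCs, the median of the members -0.28 to -0.026, Mki67 -0.13 to 0.11, Mcm2 -0.36 to 0.090, E2f1 -0.19 to 0.38, Cdkn2a -1.22 to 0.50 and Cdc6 -0.064 to 0.29. For CAV1-/- against WT without stretch, the median of the members -0.20 to 0.0070, Cdk1 -0.049 to 0.24, Ccnb1 -0.14 to 0.15, Mcm2 -0.39 to 0.055, E2f1 -0.35 to 0.073, Ccnd1 -0.58 to 1.195, Cdkn2a -0.034 to 2.45 and Tyms -0.20 to 0.86. For CAV1-/- against WT with stretch, the median of the members -0.28 to 0.032, Mki67 -0.043 to 0.42, Ccnb1 -0.45 to 0.070, E2f1 -0.39 to 0.18, Ccnd1 -1.26 to 2.07 and Ccnb2 -0.62 to 0.010. For the interaction, the median of the members -0.16 to 0.10, Ccnb1 -0.45 to 0.065, Mcm2 -0.26 to 0.18, E2f1 -0.25 to 0.31, Ccnd1 -1.57 to 1.76, Cdkn1a -0.089 to 0.22, Cdkn2a -1.42 to 1.06, Ccne2 -0.60 to 0.049 and Tyms -0.87 to 0.39. For the mean stretch effect, Pcna -0.080 to 0.015, E2f1 -0.063 to 0.22, Ccnd1 -1.59 to 0.076, Cdkn2a -0.89 to 0.35 and Ccnd3 -0.0019 to 0.27. The other genes followed in a comparison, and its other medians, kept their direction there. Members not followed were not examined in this way, and some also turned without animal 1 for CAV1-/- against WT without stretch, such as Mcm5 (0.030), Mcm6 (0.18) and Mcm7 (0.077).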
